A study of Homo sapiens with 40 samples.

Results

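Cytosolic ribosomal proteins build the 2 subunits of the ribosome, which carry out protein synthesis. Members here are the protein-coding genes whose symbol starts with RPL or RPS followed by a number and an optional short suffix, plus RPLP0 to RPLP2 and RPSA, leaving out chromosome Y. This gave 84 of 60708 genes counted, 52 of the large subunit and 32 of the small subunit, and 7 of them are paralogs of another member (RPL3L, RPL7L1, RPL10L, RPL22L1, RPL26L1, RPL39L and RPS27L). The genes were chosen by name, not by their values.

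The RNA-seq libraries came from 8 groups of 3 biological replicates. MI Ctrl and MI TGFβ were MCF-10A cells, an immortalised, non-tumorigenic breast epithelial line, and MII Ctrl and MII TGFβ were MCF-10A-HRAS cells, the same line transformed with HRAS. All 4 were grown as spheres in ultra-low attachment plates, and the TGFβ groups received TGFβ1 at 2.5 ng/ml for 16 h while the Ctrl groups were untreated. WT and SLUG KO were MDA-MB-231 cells, a triple-negative breast cancer line, untreated or edited with CRISPR/Cas9 at SLUG (gene symbol SNAI2). Csi and siSMAD were MDA-MB-231 cells transfected with scrambled siRNA or with siRNAs against SMAD2, SMAD3 and SMAD4. The MDA-MB-231 groups grew as monolayers, so line and culture form cannot be told apart in any comparison of them with the spheres. The siRNA libraries carry another batch label than the other 18, and no fit compared them with those.

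Transcripts of ribosomal protein genes are abundant in growing cells, and most of them begin at a C followed by a run of pyrimidines, the 5′ terminal oligopyrimidine (TOP) motif, through which the mTORC1 kinase and the protein LARP1 control their translation. TOP control acts on translation, which RNA-seq counts do not measure. Most ribosomal proteins are made in all cells, whereas paralogs such as RPL3L and RPL10L are known for expression in few tissues.

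The libraries held 14124688 to 38406952 assigned counts. WT replicate 2 stood apart, with a Pearson r of 0.917 and 0.908 to WT replicates 1 and 3 across genes, against 0.991 between those 2, so the comparisons with WT are given with and without it. SMAD2 fell in siSMAD (log2 fold change −1.92), as did SMAD4 (−1.72) and SMAD3 (−0.69), and HRAS was higher in MII Ctrl than in MI Ctrl (2.45). SNAI2 read 66.2, 61.4 and 67.3 CPM (a gene's counts scaled to the library's size) in the libraries labelled SLUG KO and 33.0, 22.4 and 35.2 CPM in WT. Its transcript was therefore higher in the knockout-labelled libraries, and transcript counts do not check that edit. The authors report knockout clones grown from single-cell colonies and checked by ddPCR and immunoblotting. The edit and the growth from single cells cannot be told apart here. Basal epithelial markers were present in the spheres (summed level 1076 to 3683 CPM) and low in MDA-MB-231 (14.8 to 43.0 CPM). The leukocyte markers were under 1 CPM in all groups, but the endothelial and fibroblast markers were not. Endothelial markers summed to 12.2 to 115.0 CPM in the spheres and 2.04 to 9.32 CPM in MDA-MB-231. Fibroblast markers summed to 0.131 to 18.3 CPM in the spheres and 49.9 to 93.2 CPM in MDA-MB-231. Whether other cell types were present was not tested.

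The start sites of members that the results turn on are shown first, as 30 bases of the GRCh38.p14 RefSeq promoter table, 15 before and 15 from the annotated start, on the transcribed strand. Capitals mark the longest run of at least 5 pyrimidines (C or T) that reaches within 5 bases of the start. The first pair is RPL22L1, the member with the highest TGFβ response in MI-spheres, at chr3:170870181-170870210 (minus strand), and its parent RPL22 at chr1:6199581-6199610 (minus strand).
RPL22L1: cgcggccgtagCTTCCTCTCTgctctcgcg
RPL22: tagttcgctcaCCTCCCTTTCTaactccgc
Both held a run at the start, of 10 bases in RPL22L1 and 11 in RPL22. The next pair is RPS27L, the member that was most raised in MII over MI Ctrl, at chr15:63157463-63157492 (minus strand), and its parent RPS27 at chr1:153990747-153990776 (plus strand).
RPS27L: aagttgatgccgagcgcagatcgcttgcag
RPS27: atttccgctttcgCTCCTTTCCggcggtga
RPS27 held a run of 9 bases there, and RPS27L held none over 2 bases within 5 bases of the start. RPS16 and RPS21 had the lowest values in the interaction and in MII against MI Ctrl, at chr19:39435935-39435964 (minus strand) and chr20:62387088-62387117 (plus strand), and both held a long run.
RPS16: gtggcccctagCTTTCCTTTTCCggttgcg
RPS21: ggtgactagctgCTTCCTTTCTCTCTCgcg

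Of the 84 members, 67 had an entry in the promoter table. A C at the first base followed by at least 4 pyrimidines was found in 43 of them (64.2%), against 4.66% of all 15333 protein-coding promoters. A pyrimidine run of at least 8 bases within 5 bases of the start was found in 71.6% of the members and 11.4% of all promoters. Among the paralogs with an entry, 1 of 5 had the C and pyrimidines, namely RPL22L1. The letters CCGGAAG, a core of the site bound by ETS factors, were found on either strand of 34.3% of member promoters and 14.4% of all promoters. These are matches of letters and not measured sites. The median log2 fold change in MI-spheres with TGFβ was 0.49 for the 43 members with the C and pyrimidines and 0.51 for the 23 tested members without, a description with no test.

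Ribosomal protein genes took 7.71% ± 0.118 (SD, n = 3) of all counts in MI Ctrl and 9.90% ± 0.392 (n = 3) in MI TGFβ. In MII Ctrl the share was 5.47% ± 0.0583 and in MII TGFβ 5.98% ± 0.0814 (n = 3 each). The share was lower in MDA-MB-231, at 4.22%, 2.78% and 5.0% in WT replicates 1 to 3, 4.16% ± 0.207 in SLUG KO, 2.74% ± 0.151 in Csi and 2.70% ± 0.0294 in siSMAD (n = 3). The sphere groups did not overlap with TGFβ on or off (exact two-sided permutation p = 0.1 in each line, the smallest that 3 against 3 libraries allow). Large subunit genes took more counts than small subunit genes in every library. Their ratio was 1.57 ± 0.00532 in MI Ctrl and 1.57 ± 0.00746 in MI TGFβ (n = 3 each, exact permutation p = 0.9), so both subunits moved together with TGFβ there. It was 1.64 ± 0.0125 in MII Ctrl, 1.78 ± 0.0572 in SLUG KO and 1.94 ± 0.0385 in Csi (n = 3 each).

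Levels per length were computed as TPM (counts divided by gene length, scaled to a fixed total) from the exon length in the files. Over the 8 groups, the small subunit members with high levels included RPS12 (2809 TPM) and RPS18 (1935 TPM), and the highest large subunit members were RPL7A (1863 TPM), RPL13A (1694 TPM) and RPLP0 (1425 TPM), whose protein anchors the ribosomal stalk. The order depended on the length used. With the length of the canonical transcript, an alternative chosen after seeing the data, RPLP0 (3416 TPM) came before RPL13A (3311 TPM) and RPL7A (3132 TPM), RPS12 (2437 TPM) moved from rank 1 to 10 among the members, and RPS29 moved from rank 72 to 11. The median was 489 TPM over 46 large and 530 TPM over 31 small subunit members that are not paralogs. The low end included RPL10L (at most 1 count in any library), RPL3L (0 to 12 counts), RPL36A (3.97 TPM), RPS10 (4.91 TPM) and RPS27L (31.0 TPM). Proteins of RPL36A and RPS10 are standard parts of the ribosome, and 22.4% of the exon bases of RPL36A and 40.3% of RPS10 are shared with other genes, where reads were not counted. How much that lowered their level was not tested. TPM set the order of genes and not the order of groups, because RN7SL1, the RNA of the signal recognition particle, held 47.4% to 54.6% of TPM in MI libraries, 30.7% to 47.0% in MII libraries and 0.00162% to 0.00295% in the siRNA libraries. The members with the largest SD of the 8 group means of log2 CPM, here scaled over all 24 libraries, were RPS29 (1.93), RPS15A (1.56), RPL37A (1.55) and RPL38 (1.46). RPS29 read 682, 776 and 747 CPM in MI Ctrl and 24.1, 42.4 and 36.2 CPM in Csi, 2 groups of different line and batch label. These CPM were scaled apart in spheres and siRNA libraries, so they are a description of each group, and the size of their difference depends on the scaling.

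TGFβ raised nearly the whole set of ribosomal protein genes in MI-spheres. Of the 82 members tested (RPL3L and RPL10L were too low), 78 rose and 1 fell at an adjusted p under 0.05 in edgeR's quasi-likelihood test, against 28.7% of all genes that rose and 27.4% that fell. Among genes with a mean log2 CPM of at least 6, 49.5% rose. The median log2 fold change was 0.49 for the members (1.40-fold), with quartiles of 0.44 and 0.56, and −0.02 for all 16863 genes tested. Large and small subunit medians were 0.49 and 0.48, with 49 of 50 and 29 of 32 members higher. The share of counts on mitochondrial genes fell with TGFβ in the same libraries, from 0.744% to 0.487% in MI and from 1.55% to 1.08% in MII, as did that on long non-coding RNA genes, from 2.41% to 1.46% and from 3.14% to 1.71%, each without overlap (exact permutation p = 0.1). The summed level of the 6 basal epithelial markers was 1954 to 1996 CPM in MI Ctrl and 3494 to 3683 CPM in MI TGFβ, and 1076 to 1130 CPM in MII Ctrl and 2364 to 2484 CPM in MII TGFβ. Their part in the results with TGFβ was not tested. In bulk samples, more cells of a type and more RNA per cell cannot be told apart.

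RPL22L1, the paralog of RPL22 of the large subunit, read 55.6, 56.6 and 60.8 CPM in MI Ctrl and 120, 116 and 140 CPM in MI TGFβ. The groups did not overlap, and the log2 fold change was 1.10 ± 0.07 (SE, edgeR adjusted p = 1.51e-11). RPSA, the laminin receptor and small subunit protein, read 1108, 1140 and 1157 CPM without and 1811, 1745 and 1993 CPM with TGFβ (log2 fold change 0.68). RPL17 (0.75) and RPL7L1 (0.69) completed the 4 highest. RPL36A fell, from 6.38, 6.59 and 5.67 CPM to 4.32, 4.80 and 4.59 CPM (−0.47 ± 0.13, edgeR adjusted p = 0.006). RPS10 (−0.27) and RPS27L (0.05) were not called. RPL36A was the only member called against the direction of the median in edgeR, and DESeq2 did not call it (adjusted p = 0.0863).

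In MII-spheres the rise was smaller. TGFβ raised 75 of 82 members and lowered 2, against 29.9% of all genes that rose and 27.6% that fell, and 53.9% that rose among genes with a mean log2 CPM of at least 6. The median log2 fold change was 0.27 (1.21-fold), and −0.02 over all 16396 genes. RPSA led (0.53 ± 0.03), from 561, 544 and 534 CPM to 814, 775 and 834 CPM, followed by RPL6 (0.52), RPL35 (0.49) and RPL17 (0.44). RPL36A (−0.63 ± 0.15) and RPS16 (−0.44 ± 0.07), a small subunit protein, fell. RPS16 read 113, 164 and 143 CPM in MII Ctrl and 89.1, 119.7 and 111.4 CPM in MII TGFβ, so these groups overlapped, and DESeq2 did not call the difference (adjusted p = 0.103). RPL28 (−0.03) was not called. With library totals in place of TMM scaling, the all-gene median moved to −0.15 in each line, and the members' median to 0.35 in MI and 0.14 in MII. The share of all calls that were higher fell from 51.2% to 34.1% in MI and from 52.0% to 33.3% in MII. Of the members, 76 then rose and 2 fell in MI, against 3271 and 6308 of all 16863 genes. In MII 59 rose and 6 fell, against 3193 and 6407 of all 16396 genes.

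**Figure D1:**
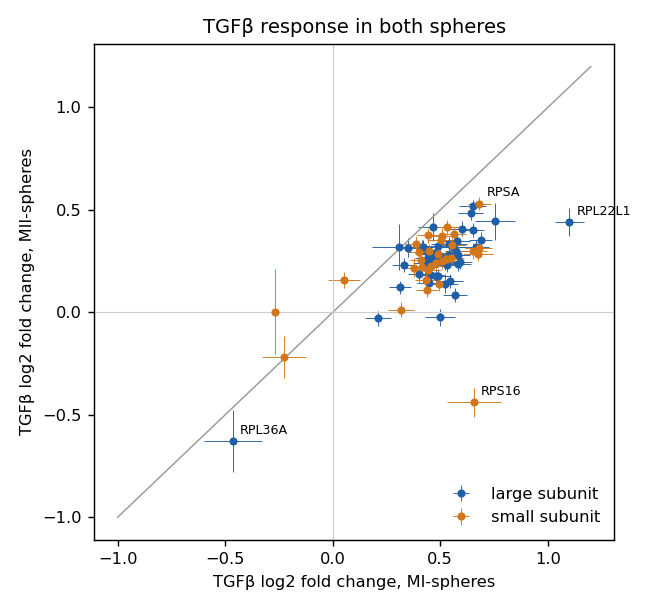
TGFβ log2 fold change of each tested member in MI-spheres (x axis) and MII-spheres (y axis), with the edgeR SE as bars. The diagonal marks equal responses. Most members lie below it, and RPS16 lies far below it.

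The difference between the 2 responses was tested as an interaction over the 12 sphere libraries. The TGFβ response of 48 of 82 members was lower in MII than in MI and that of 0 was higher, against 9.75% lower and 12.6% higher over all 18591 genes, and 15.9% lower and 24% higher among genes with a mean log2 CPM of at least 6. The median interaction was −0.21 over the members and 0.00 over all genes. Leaving out single libraries gave 40 to 71 calls. The strongest was RPS16 (−1.08 ± 0.17, edgeR adjusted p = 3.36e-06), which read 161, 172 and 160 CPM in MI Ctrl and 313, 299 and 178 CPM in MI TGFβ. The third MI TGFβ library was lower than its replicates. RPL22L1 (−0.65), RPLP1 (−0.51), an acidic stalk protein, and RPL12 (−0.47), a protein at the stalk base, followed. RPL12 read 1207, 1260 and 1294 CPM in MI Ctrl, 1856, 1772 and 2034 CPM in MI TGFβ, 1311, 1225 and 1272 CPM in MII Ctrl and 1428, 1369 and 1332 CPM in MII TGFβ. At the other end RPS10 (0.28), RPS27L (0.11) and RPL39L (0.02) were not called.

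Genes that share the TOP motif or the pathway were described from lists beside the members. Of 13 tested translation factors and other known TOP genes, 13 rose in MI and 9 rose and 1 fell in MII. EEF1A1, the elongation factor that brings tRNA to the ribosome, rose by 0.54 in MI and 0.23 in MII, while PABPC1, the poly(A)-binding protein, rose by 0.29 in MI and had a log2 fold change of −0.19 in MII. All 4 ribosomal proteins whose symbol lies outside the naming rule (RACK1, FAU and RPL36AL among them) rose in both lines. Of 16 genes of the mTORC1 arm, 7 rose and 5 fell in MI and 7 rose and 4 fell in MII. The 7 that rose were 43.8% of that list, between the shares of all genes that rose (28.7% in MI and 29.9% in MII) and those of genes with a mean log2 CPM of at least 6 (49.5% and 53.9%). Of 9 chaperones of ribosomal proteins, 8 rose in MI (88.9%) and 7 in MII (77.8%), and none fell in edgeR's test in either.

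Without TGFβ, ribosomal protein genes were lower in MII- than in MI-spheres. Of 82 members, 74 were lower and 3 higher, against 32.5% of all genes lower and 31.7% higher, and 47.9% lower among genes with a mean log2 CPM of at least 6. The median was −0.63 (0.648-fold), and 0.02 over all 17862 genes. RPS21, a small subunit protein, fell from 634, 640 and 678 CPM in MI Ctrl to 220, 226 and 218 CPM in MII Ctrl (−1.56 ± 0.04). RPSA (−1.06), RPS28 (−1.01) and RPL27A (−0.99) followed. RPS27L, a p53-responsive paralog of RPS27, went the other way, from 85.8, 92.7 and 96.8 CPM to 237, 219 and 231 CPM (1.32 ± 0.04), as did RPL39L (0.75 ± 0.12) and RPS6 (0.19 ± 0.04), the substrate of S6 kinase. RPL36A (0.27) was not called. The share of counts on mitochondrial genes was 0.744% in MI Ctrl and 1.55% in MII Ctrl, and its part in the result was not tested.

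**Figure D2:**
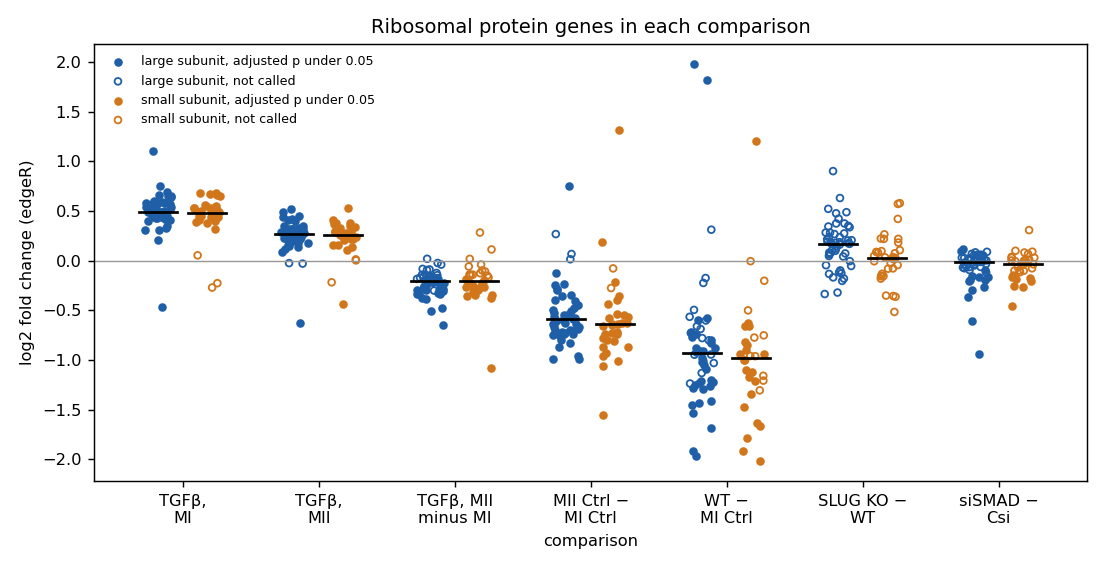
Log2 fold change from edgeR (y axis) of every tested member in the 7 comparisons (x axis), large and small subunit apart. Filled points have an adjusted p under 0.05, and black lines are medians. Most members lie above 0 with TGFβ in both spheres (79 of 82 in MI and 77 in MII) and below 0 in MII Ctrl (76) and WT (78) against MI Ctrl.

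Some paralogs departed from their parents between cell lines, with TGFβ or between the MDA-MB-231 groups. RPL7L1, whose protein is a factor of ribosome assembly, read 175, 184 and 184 CPM in MI Ctrl and 823, 552 and 982 CPM in WT, while RPL7 read 1404, 1480 and 1505 CPM and 669, 335 and 784 CPM. These CPM were scaled within the spheres and within the WT and SLUG KO libraries apart, which the ratio of both genes within a library does not depend on. The log2 ratio of RPL7L1 to RPL7 was −3.01 in MI Ctrl and 0.45 in WT (0.31 without WT replicate 2), and these groups did not overlap (exact permutation p = 0.1, the smallest possible). The ratios here are of CPM and do not account for gene length, which is 7811 exon bases in RPL7L1 and 2700 in RPL7. In TPM, RPL7L1 stood at 4.28% of RPL7 in MI Ctrl and at 42.5%, 56.9% and 43.3% in WT, below its parent in both. RPL39L stood at −7.10 against RPL39 in MI Ctrl and −5.65 in MII Ctrl. In WT it stood at −4.52, −2.80 and −4.64, a mean of −3.99, or −4.58 without replicate 2, which lay above the others. The ratio of RPL22L1 to RPL22 was −1.10 in WT and 0.13 in SLUG KO, a difference of 1.23 without overlap (exact permutation p = 0.1), or 0.96 without WT replicate 2. Between WT and MI Ctrl it differed by 0.45 with overlap (exact permutation p = 0.4), or by 0.71 without overlap when WT replicate 2 was left out (exact permutation p = 0.1). With TGFβ, the log2 ratio of RPL22L1 to RPL22 moved from −1.55 to −0.91 in MI without overlap, and from −1.94 to −1.78 in MII with overlap (exact permutation p = 0.4). The ratio of RPS27L to RPS27 moved from −3.49 to −3.76 in MI and from −1.54 to −1.39 in MII, in opposite directions and without overlap in either (exact permutation p = 0.1 each). The ratio of RPL26L1 to RPL26 was −2.15 and −2.20 in MI with overlap (exact permutation p = 0.6), and moved from −2.31 to −2.03 in MII without overlap (exact permutation p = 0.1). Between MI Ctrl and MII Ctrl it overlapped (exact permutation p = 0.3). With TGFβ, the ratio of RPL39L to RPL39 went from −7.10 to −7.34 in MI with overlap (exact permutation p = 0.2). In MII it went from −5.65 to −5.67, also with overlap (exact permutation p = 0.8).

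**Figure D3:**
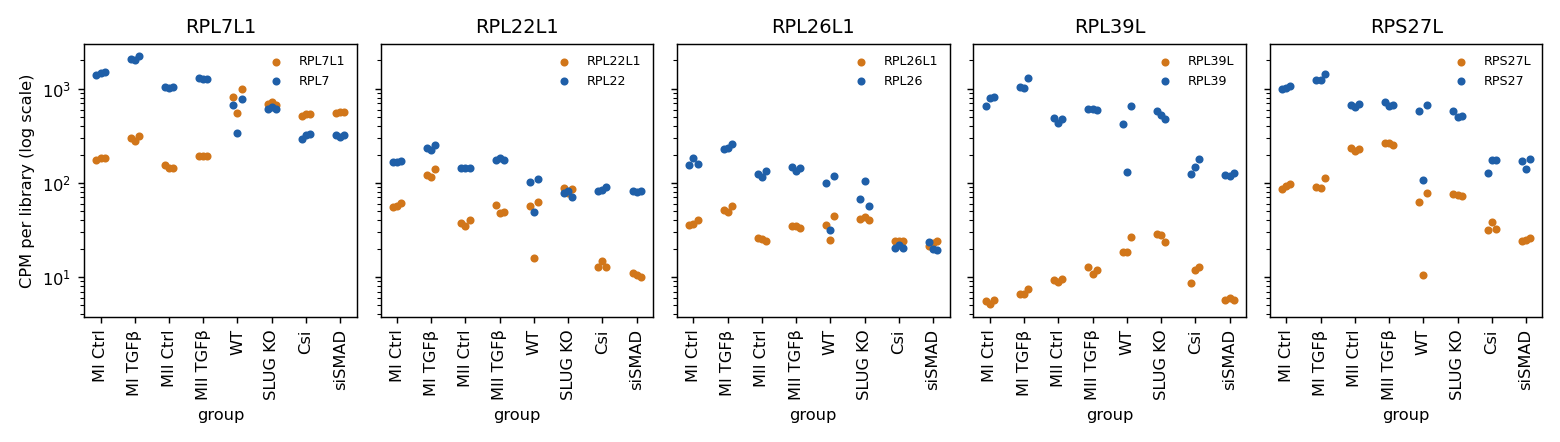
CPM per library (log scale, y axis) of 5 paralogs (orange) and their parent genes (blue) by group (x axis), with 1 point per library. RPL7L1 lies above RPL7 in WT, SLUG KO, Csi and siSMAD and below it in the spheres, in CPM that are not divided by gene length. CPM was scaled within the spheres, the WT and SLUG KO libraries and the siRNA libraries apart.

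In MDA-MB-231 WT against MI Ctrl, 51 of 82 members were lower and 3 higher, against 25.9% of all genes lower and 28.1% higher, and 23.6% lower among genes with a mean log2 CPM of at least 6. Without WT replicate 2, 74 were lower and 4 higher. The shares of all genes are from the fit with that library and are not given for the fit without it. The median was −0.95 (−0.77 without that library), and 0.06 over all genes. RPS14 (−2.02), RPL13A (−1.96), RPS15A (−1.92) and RPL4 (−1.91) were lowest. Without WT replicate 2 these were −1.81, −1.97, −1.59 and −1.79 in the same order. RPL13A read 3665, 3681 and 3934 CPM in MI Ctrl and 934, 1029 and 1216 CPM in WT. RPL7L1 (1.98 ± 0.25), RPL39L (1.82 ± 0.23) and RPS10 (1.21 ± 0.30) were higher, the last not without MI Ctrl replicate 3 (edgeR adjusted p = 0.0593), and RPL36A (0.31) was not called. Without WT replicate 2 the values were 2.16 for RPL7L1, 1.88 for RPL39L and 1.41 for RPS10, and RPL36A (0.60, edgeR adjusted p = 0.00489) was called higher and RPS27L (−0.55, edgeR adjusted p = 0.000108) lower.

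No member was called between SLUG KO and WT in edgeR or DESeq2, and 0 members had an unadjusted p under 0.05 in edgeR. Over all genes 1.45% were higher and 1.89% lower, and among genes with a mean log2 CPM of at least 6 the shares were 1.39% and 0.601%. Without WT replicate 2, 4 members were higher and 10 lower, and the median went from 0.10 to −0.10. The shares of all genes above are from the fit with that library. They are not given for the fit without it, so the 14 calls have no background to be read against. RPL22L1, the highest (0.90 ± 0.46), read 56.1, 15.9 and 62.8 CPM in WT and 87.5, 78.4 and 85.9 CPM in SLUG KO. WT replicate 2 lay far below every other library of both groups there. RPL30 (0.63), RPS15A (0.58) and RPS27L (0.57) followed, and RPS16 (−0.52), RPS19 (−0.36), RPS10 (−0.36) and RPS27A (−0.35) were lowest. Leaving out single libraries gave 0.10 to 1.05 for RPS27L, 0.24 to 1.03 for RPS15A, −0.72 to −0.16 for RPS16 and −0.69 to −0.050 for RPS27A. Without WT replicate 2, RPL22L1 (0.51) and RPL30 (0.35) were called higher and RPS27A (−0.69), RPS10 (−0.57) and RPL7L1 (−0.36) lower in edgeR, while RPS15A (0.24), RPS27L (0.10), RPS16 (−0.16) and RPS19 (−0.16) were not called.

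Silencing SMAD2, SMAD3 and SMAD4 left the median at −0.02 (0.00 over all genes), with 20 members lower and 2 higher, against 19.7% of all genes lower and 16.3% higher, and 31.9% lower and 25.6% higher among genes with a mean log2 CPM of at least 6. The share of members that were lower was near that of all genes. Leaving out Csi replicate 3 gave 13 calls. The file names of siSMAD replicates 1 and 2 carry another flow cell than the rest of the siRNA libraries. A fit with flow cell as a term therefore compares siSMAD replicate 3 alone with Csi, and its member median was −0.02. The largest were paralogs and RPL17. RPL39L fell from 8.63, 11.8 and 12.8 CPM in Csi to 5.68, 5.99 and 5.74 CPM in siSMAD (−0.94 ± 0.12, edgeR adjusted p = 1.21e-07). RPL17 (−0.61 ± 0.12), RPS27L (−0.46 ± 0.07) and RPL22L1 (−0.36 ± 0.09) fell too, whereas RPL18 (0.10 ± 0.04) and RPL24 (0.11 ± 0.04) rose, calls that held in 9 and 10 of 16 alternative fits. In the flow cell fit, which rests on siSMAD replicate 3, the values were −0.96 for RPL39L, −0.63 for RPL17 and −0.40 for RPS27L. They were −0.44 for RPL22L1, 0.075 for RPL18 and 0.11 for RPL24. RPS10 (0.31) and RPS24 (0.10) were not called, and their values were 0.66 and 0.18 in the flow cell fit.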

How the data were processed

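Paired-end stranded total RNA libraries depleted of ribosomal RNA were sequenced. Whole-number counts per gene were deposited by the authors. Their processing notes name Trimmomatic, STAR and featureCounts of Subread 2.0.0, and the file headers give GENCODE 38 as annotation, with a mapping quality of at least 30. Reads in several genes were not counted, and strand was not used, so overlapping and antisense genes and near-identical copies such as processed pseudogenes can lower or mix a member's counts. Symbols came from GENCODE 44 for 60463 of 60708 gene IDs (99.6%).

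Each comparison was fitted on its own groups with edgeR 4.0.16 (filterByExpr, TMM, quasi-likelihood F-test, Benjamini-Hochberg over all genes tested, adjusted p under 0.05), under R 4.3.3, with DESeq2 1.42.0 as an alternative. The interaction used the 12 sphere libraries. CPM used TMM within the spheres, the WT and SLUG KO libraries and the siRNA libraries. Shares and log2 ratios of paralogs to parents were compared by exact two-sided permutation tests (scipy 1.17.1). Scripts were tested on simulated data. Depth was 14124688 to 38406952 counts per library. Replicates are biological replicates per the labels.

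Named are the paralogs with their parents, the 4 highest and 4 lowest log2 fold changes per comparison, the 3 highest and 3 lowest levels per subunit, the 4 members that varied most over groups, members called against the median, and checks of the labels. Some genes that this rule or the lists would name are not reported here. The members, lists and tests were chosen with earlier results of these data known. The 16 ATAC-seq samples were not analysed here. No protein sequence was used.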

Additional observations from a re-analysis of the deposited data

Results flagged for a closer look

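The TGFβ response differed between MI- and MII-spheres, by the interaction test over the 12 sphere libraries, for 48 members, all lower in MII. Among the named genes this held for RPS16 (−1.08), RPL22L1 (−0.65), RPLP1 (−0.51), RPL12 (−0.47) and RPL7L1 (−0.33), each as the log2 difference MII minus MI. Groups of 3 libraries were not tested for single outlying libraries.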

How the results depend on the processing

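The main direction of the members' median held for MI, MII, MII against MI Ctrl, the interaction and WT against MI Ctrl under every alternative fit. In TPM, whose total RN7SL1 dominates in the spheres, the median of the 77 members that are not paralogs fell with TGFβ in MII. It went from 509 to 453 TPM without overlap, and was 530 TPM in MI Ctrl and 509 TPM in MII Ctrl with overlap (exact permutation p = 0.2). In TPM over protein-coding genes, chosen after seeing the data, it rose with TGFβ in MII, from 893 to 949 TPM without overlap. There it was 1344 TPM in MI Ctrl and 893 TPM in MII Ctrl, also without overlap (exact permutation p = 0.1 each). The members' median log2 fold change moved by more than the spread between libraries with library totals in place of TMM. It went to 0.35 in MI, 0.14 in MII and −0.53 in MII against MI Ctrl. In MII it also did so with at least 10 counts in every library, to 0.23. Leaving out single libraries gave interaction medians of −0.29 to −0.18, medians of −0.10 to 0.36 in SLUG KO against WT and of −0.084 to 0.019 in siSMAD against Csi, the latter 2 changing sign. It gave 0 to 14 members called in SLUG KO against WT (14 without WT replicate 2), 13 to 32 in siSMAD against Csi (13 without Csi replicate 3 and 32 without Csi replicate 1) and 31 to 78 in WT against MI Ctrl (31 without MI Ctrl replicate 3 and 78 without WT replicate 2). The shares of all genes called in these fits are not given. The log2 ratio of MI TGFβ to Csi for the members' median was 0.70 in TPM, 2.25 in CPM over 24 libraries, 1.07 with the canonical transcript length and 1.94 in TPM over protein-coding genes, the last 2 chosen after seeing the data, so the size of a level difference between these groups depends on the scaling.

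Genes near 0 changed sign, none of them called in the main fit of its comparison. Without WT replicate 2, edgeR called RPL7L1 in SLUG KO against WT and RPL36A in WT against MI Ctrl. RPL28 in MII was called in 1 of 16 alternative fits and the RPS27L interaction in 1 of 21. RPS27L in MI was −0.085 with library totals and −0.056 to 0.13 when libraries were left out. RPL28 in MII was 0.0079 in DESeq2, 0.00679 without the low-count filter, 0.0045 with all 12 sphere libraries in 1 fit and −0.057 to 0.013 when libraries were left out. With TMM computed without the members, the interaction was −0.012 for RPL39L. With libraries left out it was −0.081 to 0.054 for RPL39L and −0.000799 to 0.20 for RPS27L, while RPL7L1 in SLUG KO against WT was −0.36 to 0.045 and RPL36A in WT against MI Ctrl −0.12 to 0.60. In no comparison were all correlations of same-numbered libraries over 0.1, so the numbers were not taken as pairs. The fit with the replicate block called 80 members in MI, 77 in MII, 77 in MII against MI Ctrl, 55 in the interaction, 0 in SLUG KO, 21 in siSMAD and 58 in WT against MI Ctrl. Libraries of 14124688 counts or more leave RPL10L and RPL3L too low to test.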

Other observations

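WT replicate 2 read lower than the mean of the other 2 WT libraries for 65 of 77 members that are not paralogs, with a median log2 difference of −0.61 in TPM. Its Pearson r across these members was 0.905 and 0.906 with WT replicates 1 and 3, and 0.943, 0.947 and 0.946 with the Csi libraries. These are correlations across genes of the same cell line, and the libraries differ in batch label. RPS27 read 107.7 CPM in it, against 586 and 678 CPM in the other WT libraries and 126, 174 and 173 CPM in Csi. CPM of the WT and Csi libraries were scaled apart. The share of counts on mitochondrial genes was 2.40% in it, 0.812% and 0.656% in the other WT libraries and 3.81% to 4.95% in Csi. Other measures were closer to the other WT libraries than to Csi. RN7SL1 took 0.643% of its counts, 1.17% and 2.13% in the other WT libraries and 0.000136% to 0.000219% in Csi. Long non-coding RNA genes took 1.86%, against 2.18% and 1.61% in the other WT libraries and 0.976% to 1.01% in Csi. The large to small subunit ratio was 1.66, against 1.65 and 1.58 in the other WT libraries and 1.91 to 1.99 in Csi. Their part in the WT results was not tested.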
